A study of Mus musculus with 211 samples.

Results

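Of 48709 genes in the count table, 9 genes of the inflammasome and of interleukin 1 signalling were examined: *Nlrp3*, *Pycard*, *Casp1*, *Casp4*, *Gsdmd*, *Il1b*, *Il1rn*, *Il1r2* and *Il1rap*. They were chosen by name and found through their Ensembl identifiers, and all 9 had reads. The cells came from the cochleae of *Lfng*-EGFP transgenic mice on the CD1 strain, in which EGFP is driven by regulatory sequence of the *Lfng* gene, at P60 or P120 (days after birth). Every group carried the transgene, no mouse was treated, and there was no non-transgenic or GFP-negative group. Viable cells were sorted by FACS for GFP, single cells were captured on Fluidigm C1 chips, and each capture pooled cochleae from several mice. The table holds 211 cells from 8 captures at P60 and 4 captures at P120. The capture is the replicate here, since cells of 1 capture share their animals and their chip, and no label says which animals a cell came from.

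An inflammasome is a protein complex that assembles in the cytosol after infection or damage. NLRP3 is the sensor, ASC (encoded by *Pycard*) is the adaptor that joins sensor to protease, and caspase-1 is the protease that cuts pro-interleukin 1 beta into its active form. Caspase-1 and caspase-4 (the mouse gene *Casp4* encodes the protein also called caspase-11) cut gasdermin D, whose fragments form pores in the cell membrane. The system has 2 steps in phagocytes, a priming step in which *Nlrp3* and *Il1b* are transcribed and an activation step that acts on the proteins and is not seen in mRNA counts. The output is held in check by the receptor antagonist (*Il1rn*) and by the decoy receptor (*Il1r2*), which binds the cytokine without signalling, whereas *Il1rap* encodes the co-receptor shared by the signalling receptors. Neutrophils and monocytes are well known sources of interleukin 1 beta.

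The genes lie on 7 chromosomes of GRCm38. *Nlrp3* spans chr11:59541568-59566956 on the plus strand and *Pycard* chr7:127989708-127993867 on the minus strand. *Casp1* (chr9:5298517-5307265) and *Casp4* (chr9:5308828-5336783) are neighbours on the plus strand. *Gsdmd* lies at chr15:75862327-75867408 and *Il1rap* at chr16:26581704-26730117. *Il1b* (chr2:129364570-129371139, minus strand) and *Il1rn* (chr2:24336853-24351494) share a chromosome, and *Il1r2* lies at chr1:40074079-40125231. *Il1b* overlaps the antisense transcript *Il1bos* (11489 reads in all cells), and *Il1r2* overlaps *Gm16894* (1983 reads) and *Gm37347* (9062 reads). No use of strand is stated for the counting, so reads of these overlapping genes cannot be told apart from those of *Il1b* (813839 reads) and *Il1r2* (263993 reads).

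The 250 bases before the RefSeq start (GRCm38.p6) are printed for *Nlrp3* and *Il1b*, the sensor and cytokine genes that were detected together most often of the pairs drawn from the 5 roles described below. For *Pycard* and *Casp4*, whose upstream windows overlap annotated exons, 30 bases around each match are shown. Capitals mark matches to 4 motifs that were searched on both strands: the NF-kappaB motif, TTGCNNAA for C/EBP factors, GAGGAAGT for PU.1 and the TATA box letters TATAAA. All lines read 5′ to 3′ on the strand of the gene.
*Nlrp3*, chr11:59541319-59541568, plus strand: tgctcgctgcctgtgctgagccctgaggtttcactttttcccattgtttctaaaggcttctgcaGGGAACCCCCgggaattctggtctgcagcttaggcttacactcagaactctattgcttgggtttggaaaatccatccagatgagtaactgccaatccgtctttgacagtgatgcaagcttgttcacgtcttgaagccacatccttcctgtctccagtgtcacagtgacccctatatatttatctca
*Il1b*, chr2:129371140-129371389, minus strand: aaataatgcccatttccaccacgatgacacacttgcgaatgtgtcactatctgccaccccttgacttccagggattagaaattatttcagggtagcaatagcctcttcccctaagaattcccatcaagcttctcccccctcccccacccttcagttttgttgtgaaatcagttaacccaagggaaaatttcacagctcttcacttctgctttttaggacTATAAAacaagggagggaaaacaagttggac
*Casp4*, chr9:5308747-5308776, plus strand: tgagttacaGGGGATTTCCCcacagcagtt
*Pycard*, chr7:127993893-127993922, minus strand: gtccccaccccACTTCCTCcaccaacccac
*Pycard*, chr7:127993991-127994020, minus strand: acaggttgcttTTCAGCAAcagctggtttg

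The capitals in *Nlrp3* are an NF-kappaB match that begins 186 bases before the start and lies on the opposite strand. The window of its other RefSeq start (chr11:59542436-59542685) is not printed and held no match to any of the motifs. *Il1b* has TATAAA beginning 31 bases before its start. In *Casp4* the capitals hold a pair of NF-kappaB matches that overlap each other. *Pycard* has a PU.1 match 44 bases and a C/EBP match 142 bases before its start, both on the opposite strand, so the capitals show the reverse complement of the motif letters. Of 32851 upstream windows of the same length, 3.9% held the NF-kappaB motif, 9.56% the C/EBP letters, 2.44% the PU.1 letters and 12.4% the TATA letters. The windows of *Casp1*, *Il1rn*, *Il1r2* and *Il1rap* held none of these letters, and no window of *Gsdmd* was used here. A match is a description of the letters only.

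The labels call the cells adult cochlear supporting cells, but the transcripts of this table go against that name. A list of 8 mature neutrophil genes took 9.97% of all reads, and 207 of 211 cells had at least 2 of these genes at 10 or more reads. *S100a8* and *S100a9*, the calprotectin genes of neutrophils, had reads in 211 of 211 cells. These 2 genes gave most of the reads of the list and can meet that rule alone. Of the others, *Retnlg* was read in 197 cells, *Csf3r* in 184, *Mmp8* in 168, *Mmp9* in 160, *Cxcr2* in 148 and *Ly6g* in 89. A list of 13 supporting cell genes took 0.0357% of reads and had 2 genes at 10 or more reads in 13 cells. *Sox2* was read in 7 cells and *Fgfr3* in 2 cells. Other genes of that list were read more widely, *Lfng* (the gene whose regulatory sequence drives EGFP) in 120 cells at 32.03 CPM (counts per 1000000 reads on genes) over all reads, *Tectb* in 57 cells, *Tecta* in 36 and *Otog* in 26. A list of 5 specific granule genes took 6.89% of reads and met the same rule in 157 cells, with *Ngp* read in 211 cells and *Camp* in 208. The list of 6 basophil and mast cell genes took 0.949% of reads and met the rule in 24 cells. The list of 9 monocyte and macrophage genes took 0.0964% of reads and met it in 14 cells. The cells are therefore called GFP-sorted cells below. Per capture, the neutrophil list took 1.95 to 21.1% of reads at P60 and 5.12 to 13.99% at P120, and the supporting cell list at most 1.32% and 0.0126%. The cells had between 41 and 5361476 reads on genes, and capture 10c stood apart with a median of 451 reads per cell, against 457441 or more in every other capture.

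Of the sensor and adaptor genes, *Nlrp3* was the more widely detected. At least 1 *Nlrp3* read was found in 113 of 211 cells (53.6%, exact 95% interval 46.6 to 60.4%), and at least 1 *Pycard* read in 53 cells (25.1%, 19.4 to 31.5%). *Nlrp3* was present in all 12 capture sums, with a lowest value of 16.8 CPM, a median of 64.3 and a highest of 1033 CPM over the 8 P60 captures. The lowest value rests on 2 reads in capture 10c. The 4 P120 captures stood at 134, 178, 197 and 557 CPM, inside the range of the P60 captures. *Pycard* had no read in 4 of the 8 P60 captures and reached 55.97 CPM in the highest, with a median of 3.07 CPM. Its 4 P120 captures stood at 0.110, 1.07, 22.8 and 40.6 CPM. The captures without a *Pycard* read were 10c, whose depth allows up to 25.2 CPM, and 17c, 20c and 21c, which hold 3 to 8 cells and allow 0.903 CPM at most.

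The caspases and the pore gene were read in fewer cells than *Il1b*, and most of their reads came from a handful of cells. *Casp4* had reads in 79 cells (37.4%, 30.9 to 44.3%), *Gsdmd* in 60 (28.4%, 22.5 to 35.03%) and *Casp1* in 51 (24.2%, 18.6 to 30.5%). A single cell of capture 40 held 55.03% of all *Casp1* reads, and 50% or more of the reads of *Casp4* and of *Gsdmd* lay in 3 cells each. At P120, *Casp1* stood at 1.95, 5.29, 10.96 and 149 CPM, *Casp4* at 64.5, 89.6, 127 and 807 CPM, and *Gsdmd* at 25.1, 99.4, 107.3 and 558 CPM. The highest value of each was capture 36. There 1 cell gave 99.6% of the *Casp1* reads, another cell 99.9% of the *Casp4* reads and a further cell 98.8% of the *Gsdmd* reads. Over the P60 captures the lowest value of each was 0, the medians were 24.2 CPM for *Casp1*, 50.8 for *Casp4* and 0.106 for *Gsdmd*, and the highest values were 271, 309 and 108.4 CPM, all in capture 40.

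*Il1b* was the most widely read gene of the 9, and *Il1r2* followed it. *Il1b* had reads in 177 cells (83.9%, 78.2 to 88.6%), *Il1r2* in 165 (78.2%, 72.01 to 83.6%), *Il1rn* in 119 (56.4%, 49.4 to 63.2%) and *Il1rap* in 58 (27.5%, 21.6 to 34.04%). *Il1b* ranged over P60 captures from 21.5 CPM in capture 40 to 10962 CPM in capture 20c, with a median of 2918 CPM. At P120 it stood at 1300, 3209, 4936 and 6890 CPM, so the captures of the same age spread more widely than the ages differed. *Il1r2* ranged from 50.3 to 5767 CPM at P60 with a median of 1056 CPM, and stood at 534, 793, 805 and 5122 CPM at P120. Its lowest P60 value rests on 6 reads in capture 10c. For *Il1rn* the P60 captures ranged from 1.27 to 879 CPM around a median of 325, and the P120 captures stood at 54.3, 82, 133 and 422 CPM. *Il1rap* was at 0 in 4 P60 captures, had a median of 12.1 and a highest value of 131 CPM there, and stood at 0.110, 16.2, 51.2 and 84.2 CPM at P120.

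**Figure D1:**
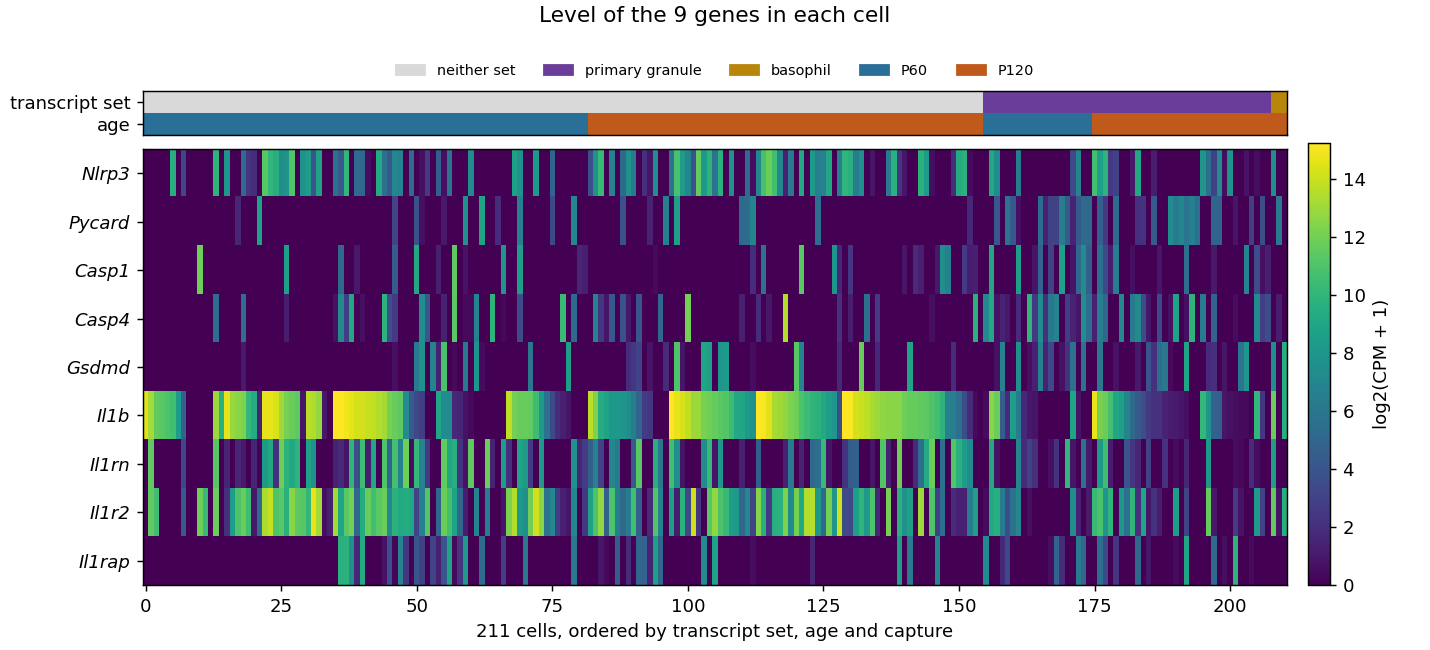
Level of the 9 genes (rows) in each of the 211 cells (columns) as log2(CPM + 1) by colour, with the transcript set and the age of each cell in the upper strips. The *Il1b* row is filled in 177 cells, and the *Pycard* row is filled mostly among the cells with primary granule transcripts.

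Levels between genes were compared per kb of exon, since full-length cDNA gives longer transcripts more reads. The length joins all annotated exons of a gene and can exceed that of any 1 transcript, which lowers the value. It was 3800 bases for *Pycard*, 5535 for *Il1rn*, 11360 for *Il1rap* and 1497 to 4057 for the others. On this scale *Il1b* was highest, with 2181 ± 1897 CPM per kb (mean ± SD, n = 12 captures), followed by *Il1r2* with 1018 ± 1157. *Il1b* was above *Il1r2* in 10 of 12 captures, and *Il1r2* above *Il1rn* in 11 of 12. The next genes were *Il1rn* at 55.5 ± 57.8, *Nlrp3* at 53.8 ± 72.9, *Casp4* at 38.9 ± 60.9, *Casp1* at 34.9 ± 55.3 and *Gsdmd* at 34.2 ± 65.7 CPM per kb. Neighbours among these 5 genes kept their order in only 5 to 7 of 12 captures and did not differ beyond their spread. *Pycard* (4.79 ± 6.01) and *Il1rap* (3.33 ± 4.23) were lowest on this scale, with *Pycard* the higher in 5 of 12 captures. How far the joined lengths set this order was not tested.

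The comparison of P120 with P60 asks whether age moved these genes, and none of the 9 passed the test. In the quasi-likelihood test of edgeR on counts summed per capture, 0 of 9 genes had a Benjamini-Hochberg adjusted p under 0.05, where 10 of 8346 genes tested did (0.12%). At an unadjusted p under 0.05 there were 2 of the 9 genes, *Casp4* and *Gsdmd*, against 443 of all genes tested (5.31%). DESeq2 gave no p for *Casp4* and *Il1r2*, and called 0 of the other 7 genes and 7 of the 6949 genes with a p (0.101%), with 0 of the 7 at an unadjusted p under 0.05. *Gsdmd* had the highest estimate, a log2 fold change of 4.14 ± 1.65 (SE, P120 over P60) with an edgeR adjusted p of 0.588, and *Casp4* had 2.96 ± 1.50 with an edgeR adjusted p of 0.933. Without capture 36, these estimates were 1.74 for *Gsdmd* and 0.32 for *Casp4*, on the log2 scale. *Nlrp3* had a log2 fold change of 1 ± 1.46 and *Il1b* of 0.37 ± 1.23, and without capture 36 both were negative, at -0.55 and -0.67. With standard errors of 1.23 to 2.27 on the log2 scale, a gene that missed the threshold is not shown to be at the same level at both ages. The remaining log2 fold changes were 0.69 ± 1.26 for *Il1r2*, 0.65 ± 1.82 for *Casp1*, -0.14 ± 2.09 for *Il1rap*, -0.75 ± 2.27 for *Pycard* and -0.99 ± 1.56 for *Il1rn*. Without capture 36 *Casp1* stood at -3.57, *Il1r2* at -1.74 and *Il1rap* at 0.29.

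The median log2 fold change was 0.65 over the 9 genes and 0.26 over all genes tested, and with the relative log expression size factors in place of TMM these medians were -0.10 and -0.10. At P120 and P60 the capture ranges of all 9 genes overlapped. In a sum over cells, more cells with a transcript and more transcript per cell cannot be told apart. Capture 36 differed from the other P120 captures in other values too. It held 0 cells with primary granule transcripts of 16, where captures 28, 32 and 38 held 54.1%, 37.0% and 10.3%. The 6 captures of sequencing run S047 were all from P60, so age and run can be told apart only in the 6 captures of the S059 runs, and within the S059 runs again 0 of the 9 genes passed the test, where 2 of 11276 genes did (0.0177%).

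**Figure D2:**
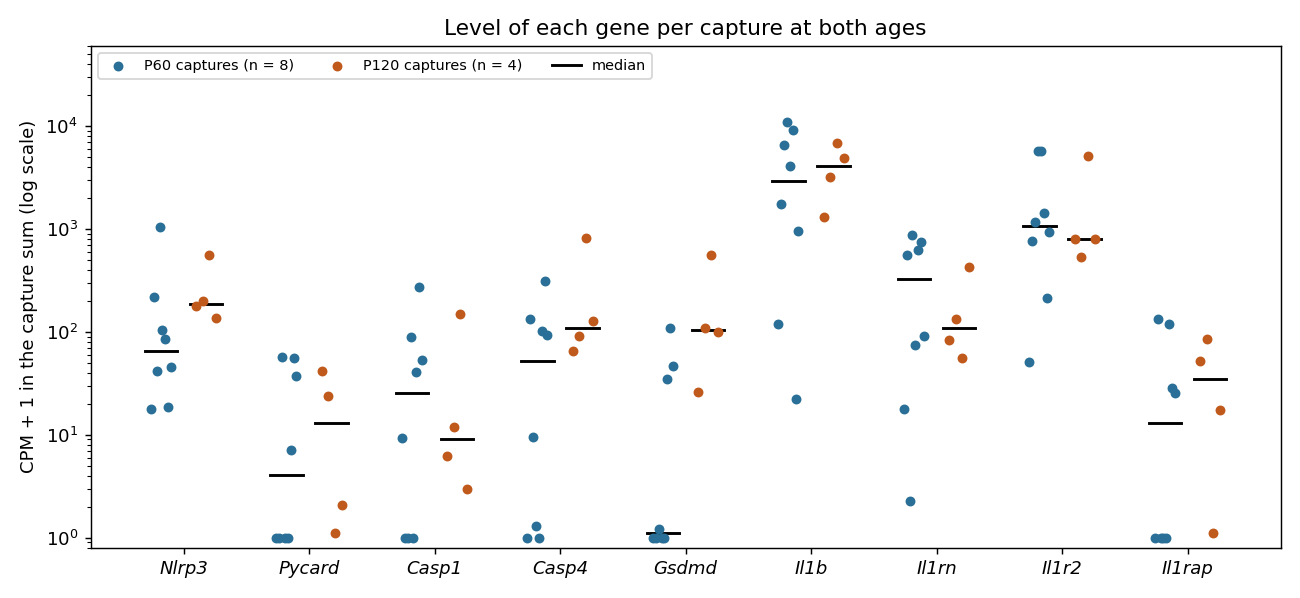
Level of each gene in the sum of every capture, as CPM + 1 on a log axis, with P60 captures (n = 8) and P120 captures (n = 4) as points and the median as a line. The points of both ages overlap for all 9 genes, and the highest P120 point of *Nlrp3*, *Casp1*, *Casp4*, *Gsdmd*, *Il1b* and *Il1r2* is capture 36.

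Sensor, adaptor, caspase, pore and cytokine were hardly ever read in the same cell. To compare cells at equal depth, each of the 164 cells with at least 50000 reads (80 at P60, 84 at P120) was thinned at random to 50000 reads. Then 0 of 164 cells held *Nlrp3*, *Pycard*, *Casp1*, *Gsdmd* and *Il1b* together, which allows a share of up to 1.83%, and the exact 95% interval reached 2.22%. The product of the 5 single shares gives 0.134 cells, so fewer than 1 such cell would be read at this depth if the 5 genes were read independently of each other. Of the 5 roles, 21 cells held none, 58 held 1, 70 held 2, 11 held 3 and 4 held 4. The 4 cells with 4 roles all held *Nlrp3* and *Il1b*, and 2 of them lacked only *Pycard*. With *Casp4* accepted in place of *Casp1*, or either caspase, the count was again 0 of 164.

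Without thinning, 7 of 211 cells (3.32%, 1.34 to 6.72%) held all 5 roles, where the product of the shares gives 1.64 cells. With *Casp4* in place of *Casp1* there were 9 of 211 (4.27%, product 2.53 cells), and with either caspase 11 of 211 (5.21%, product 3.27 cells). These 7 cells came from 5 captures, 4 from P120 and 3 from P60, and 5 of them had primary granule transcripts. In each of them the least read gene of the 5 had 1 to 3 reads. In 1 cell of capture 31, for example, the reads were 715 for *Nlrp3*, 44 for *Pycard*, 3 for *Gsdmd* and 17665 for *Il1b*. In 1 cell of capture 40 they were 165 for *Nlrp3*, 1 for *Pycard*, 680 for *Casp1*, 380 for *Gsdmd* and 139 for *Il1b*. When 10 or more reads were required for each gene, 0 of 211 cells held all 5, where the product gives 0.0625 cells. At 200000 reads per cell the count was 1 of 153, where the product gives 0.458 cells.

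The set most often found was sensor with cytokine and without the rest. *Nlrp3* and *Il1b* alone of the 5 were read in 51 of 164 cells (31.1%), *Il1b* alone in 29 (17.7%) and *Pycard* alone in 14 (8.54%). Sensor and adaptor were together in 7 cells (4.27%, 1.73 to 8.60%), with 14.1 from the product of the shares. In 6 captures with at least 3 cells of each kind, the share of *Pycard* was higher with *Nlrp3* in 1, lower in 4 and equal in 1. The mean difference was -5.47 ± 17.8 points (SD, n = 6 captures). Sensor, adaptor and caspase-1 were together in 2 cells, with 1.46 from the product. Cytokine, antagonist and decoy receptor, by contrast, were together in 36 cells (21.95%, 15.9 to 29.1%), with 19.1 from the product.

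**Figure D3:**
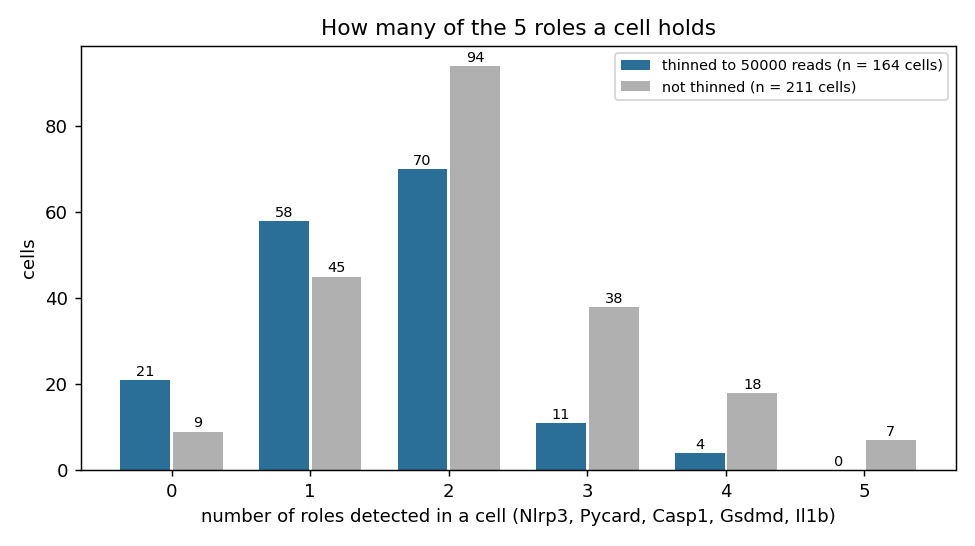
Number of cells (vertical axis) that held 0 to 5 of the roles sensor, adaptor, caspase, pore and cytokine, for 164 cells thinned to 50000 reads and for all 211 cells not thinned. The count of cells with 5 roles was 0 after thinning and 7 without it.

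Over the 36 pairs of the 9 genes, *Nlrp3*, *Il1b*, *Il1rn* and *Il1r2* were read in the same cells more often than the product of their shares. *Il1b* was read in 88.6% of the cells with *Nlrp3* and in 43.6% of those without, and both in 62 of 164 cells, with 43.96 from the product. The share of *Il1b* was higher with *Nlrp3* in 5 of 6 captures that had at least 3 cells of each kind. *Il1r2* was read in 75.7% of the cells with *Il1b* and in 26.2% of those without, both in 78 cells with 59.04 from the product, and the share was higher in 6 of 6 captures. *Nlrp3* and *Il1r2* were together in 55 cells (product 40.1), *Nlrp3* and *Il1rn* in 33 (22.6), and *Il1rn* and *Il1r2* in 42 (30.4). The correlations here and below use the counts of the 164 cells before thinning. The Spearman correlation of log2(CPM + 1) over the 164 cells was 0.62 for *Nlrp3* with *Il1b* and 0.64 for *Il1b* with *Il1r2*. With each capture's mean removed these values were 0.54 and 0.58. The cells of a capture share a chip, and each pair of genes shares the depth of its cell, so the correlations are a description.

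The adaptor went the other way from the cytokine. *Il1b* was read in 33.3% of the cells with *Pycard* and in 70.2% of those without, with both genes in 11 cells where the product gives 20.7. *Il1r2* was read in 24.2% of the cells with *Pycard* and 65.6% of those without, and was less often read with *Pycard* in 4 of 4 captures compared. For *Il1b* the captures were less even, with its share higher beside *Pycard* in 1 of 4 captures and lower in 3, by a mean of -19.9 ± 41.6 points (SD, n = 4 captures). The Spearman correlation of *Pycard* was -0.41 with *Il1b* and -0.29 with *Nlrp3*, and -0.25 and -0.16 with capture means removed. *Pycard* and *Casp1*, the adaptor and its protease, were together in 8 cells with 3.4 from the product, and *Casp1* and *Gsdmd* in 6 with 2.5. Within captures, the share of *Casp1* was higher with *Pycard* in 3 of 4 captures compared and lower in 1. The share of *Gsdmd* was higher with *Casp1* in 1 capture and lower in 1, by a mean of -0.36 ± 3.84 points (SD, n = 2 captures). For *Casp4* and *Gsdmd* there were 4 cells with both and 5.3 from the product, and without thinning 29 cells and 22.5. In all, 19 pairs lay above and 17 below the product, and 6 pairs changed side without thinning and 6 at 200000 reads.

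**Figure D4:**
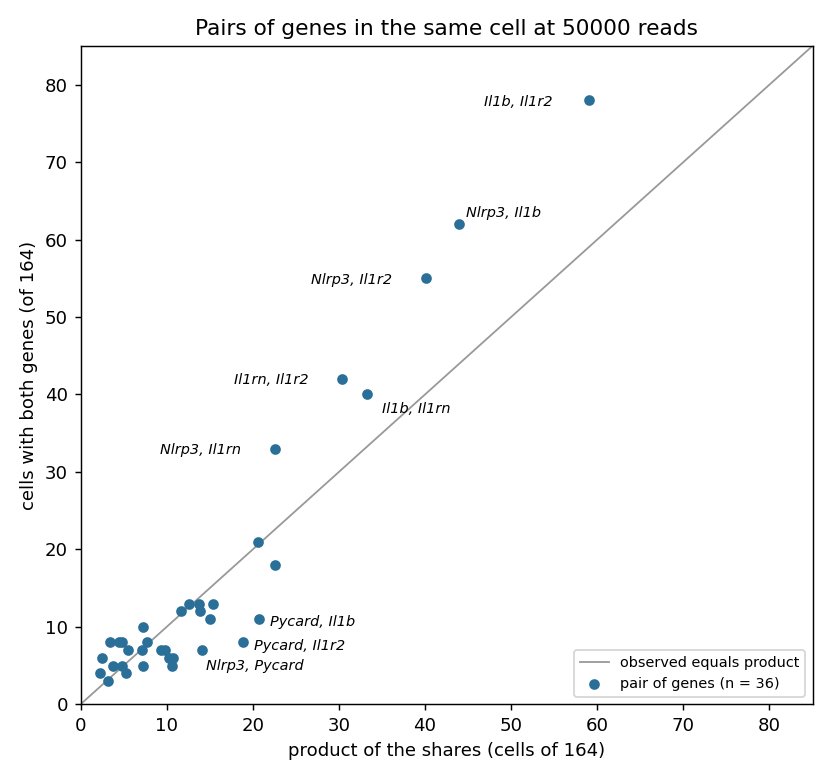
Cells that held both genes of a pair (vertical axis) against the product of the single shares (horizontal axis), for the 36 pairs over 164 cells thinned to 50000 reads, with the diagonal where the values are equal. The pair *Il1b* and *Il1r2* lies at 78 cells against 59.04, and the pair *Pycard* and *Il1b* at 11 cells against 20.7.

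The cells were then split by their transcripts for the primary granule, which granulocyte precursors make and mature neutrophils have stopped transcribing. A cell was counted as holding primary granule transcripts when at least 2 of *Elane*, *Mpo*, *Prtn3* and *Ctsg* had 10 or more reads. This held for 53 cells of 7 captures, while 155 cells had neither this set nor the basophil set, and 3 had the basophil set alone. In all 24 cells met the same rule for the basophil list, so 21 of the 53 primary granule cells held basophil transcripts too, and their part in the values below was not tested. The split uses counts of the same cells, so the values are given without a test. At 50000 reads, *Il1b* was read in 17 of 50 cells with primary granule transcripts (34%, 21.2 to 48.8%) and in 86 of 113 with neither set (76.1%, 67.2 to 83.6%). *Il1r2* stood at 32% and 69.03%, *Nlrp3* at 20% and 53.1%, and *Il1rn* at 14% and 40.7%. Within the 6 captures with at least 3 cells of each kind, *Il1b*, *Il1r2* and *Il1rn* were lower in the primary granule cells in 6 of 6 captures, and *Nlrp3* in 5 with 1 equal.

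*Pycard* had the opposite split, with 22 of 50 primary granule cells (44%, 29.99 to 58.7%) against 10 of 113 (8.85%, 4.33 to 15.7%), and was higher in 5 of 6 captures. *Casp4* was read in 34% and 16.8%, *Casp1* in 18% and 7.08% and *Gsdmd* in 20% and 12.4%, with intervals over cells that overlapped for each gene. *Casp4* was higher in the primary granule cells in 5 of 6 captures, and *Casp1* and *Gsdmd* in 4 of 6. The mean differences within captures were 16.4 ± 28.3 points for *Casp4*, 12.9 ± 25.2 for *Casp1* and 8.94 ± 14.7 for *Gsdmd* (SD, n = 6 captures). Without thinning these gaps were larger, and so was the gap in depth, with medians of 1800360 and 581442 reads per cell. The shares stood at 67.9% (53.7 to 80.1%) against 27.1% (20.3 to 34.8%) for *Casp4*. For *Gsdmd* they stood at 49.1% (35.1 to 63.2%) against 20.6% (14.6 to 27.9%). For *Casp1* they stood at 41.5% (28.1 to 55.9%) against 18.7% (12.9 to 25.8%). *Il1rap* had no clear lean, with 18% against 11.5% over all cells but a mean difference within captures of -3.16 ± 14.3 points (SD, n = 6 captures), higher in 2, lower in 3 and equal in 1. Leaving out any 1 capture turned the sign of none of the 9 differences taken over all cells. The primary granule cells were also deeper, with a median of 1809760 reads against 850832 among the cells thinned. Without thinning, the gap of *Il1b* was 77.4% against 86.5% and that of *Il1rn* 50.9% against 58.7%. The part of depth in these differences beyond the thinning was not tested.

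**Figure D5:**
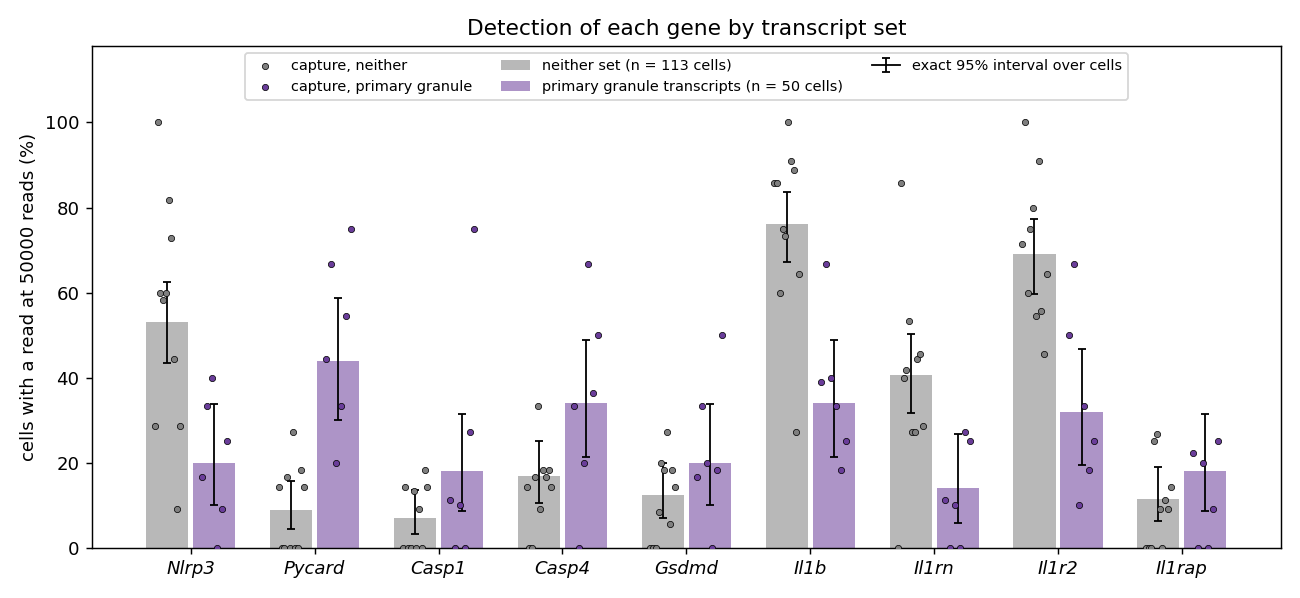
Percent of cells with a read of each gene at 50000 reads, for cells with neither transcript set (grey, n = 113) and with primary granule transcripts (purple, n = 50), with exact 95% intervals over cells as bars and captures of at least 3 such cells as points. *Nlrp3*, *Il1b*, *Il1rn* and *Il1r2* stand higher in grey, and *Pycard* stands at 44% in purple and 8.85% in grey.

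The pairs were looked at again inside each set of cells. Among cells with neither set, *Il1b* was read in 90% of those with *Nlrp3* and 60.4% of those without (54 cells with both, 45.7 from the product). Among primary granule cells the shares were 80% and 22.5% (8 cells, 3.4 from the product). *Pycard* and *Il1b* were together in 5 cells with neither set, with 7.6 from the product, and in 6 primary granule cells, with 7.5. *Nlrp3* and *Pycard* were together in 3 cells with neither set, with 5.3 from the product, and in 4 primary granule cells, with 4.4. Of the 36 pairs, 2 changed side among cells with neither set and 7 among primary granule cells.

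The cells of each S059 capture were spread over both S059 runs, so the genes could also be set side by side by run within a capture. In the 6 captures with cells in both S059 runs, the thinned share of *Il1b* was lower in run S059iso1 than in S059iso2 in 6 of 6, by a mean difference of -31.4 ± 18.5 points (SD, n = 6 captures). *Il1r2* differed by -32.5 ± 31.5 points, lower in 5 of 6, and *Nlrp3* by -21.2 ± 24.4 points, lower in 4 of 6. *Pycard* differed by 20.2 ± 18.4 points, higher in 5 and equal in 1. Primary granule transcripts moved with the run, at 45.6% of the 68 cells of S059iso1, 19.3% of the 88 of S059iso2 and 9.09% of the 55 of S047, and so did the median depth, at 1644760, 612572 and 496561 reads. Their part in the difference between runs was not tested.

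The genes whose levels over the 164 cells were most like those of *Nlrp3*, of 3787 other genes with reads in at least 25% of these cells, were *Clec4d* (Spearman correlation 0.64), *Plek* (0.63), *Il1b* (0.62), *Pim1* (0.56) and *Cxcl2* (0.55). *Clec4d* encodes a C-type lectin receptor of myeloid cells, *Plek* a protein kinase C substrate of blood cells, *Pim1* a serine/threonine kinase and *Cxcl2* a chemokine that attracts neutrophils. For *Il1b* they were *Clec7a* (0.69), which encodes the beta-glucan receptor Dectin-1, *Clec4d* (0.68), the chemokine gene *Ccl6* (0.66), the transcription factor gene *Cebpb* (0.64) and *Il1r2* (0.64). With capture means removed, 4 of 5 genes for *Nlrp3* and 5 of 5 for *Il1b* stayed in the list. In the same order, *Pycard* ranked 3084 for *Nlrp3* and 3246 for *Il1b*, and *Gsdmd* ranked 1720 and 1533.

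Of a list of 52 further genes of these pathways, 50 were in the table and 46 had at least 1 read, 16 of them in at least 25% of cells. In the age test, 29 of them could be tested and 0 passed in either direction by edgeR at an adjusted p of 0.05 (0.12% of all genes tested), with 2 at an unadjusted p under 0.05 (5.31% of all genes tested) and 0 called by DESeq2 of those it gave a p. Their median log2 fold change was 0.85, beside 0.26 over all genes. It was -0.16 without capture 38 (0.096 over all genes), 0.40 with relative log expression size factors (-0.10), 0.21 with batch as a term (0.16) and 0.048 with run as a term (0.32). The 5 with the highest summed level were *Nfkbia* (1187 CPM, 89.6% of cells), the NF-kappaB inhibitor that NF-kappaB itself induces, *Cd14* (998 CPM, 77.7%), the lipopolysaccharide co-receptor, *Serpinb1a* (994 CPM, 69.7%), an inhibitor of neutrophil serine proteases, *Il18rap* (418 CPM, 66.4%), a subunit of the interleukin 18 receptor, and *Txnip* (305 CPM, 60.2%), which encodes thioredoxin-interacting protein. The signalling receptor and the sister cytokines, named after their values were seen, were almost absent. *Il1r1* and *Il1a* had reads in 1 cell each and *Il18* in 2 cells, and *Nlrp6*, *Nlrp10*, *Il33* and *Trim31* had no read in any cell.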

How the data were processed

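Per the labels and the paper's methods, full-length cDNA was made from each captured cell, and the authors aligned the reads with STAR to GRCm38 (vM11 annotation) and deposited raw read counts per gene without molecular identifiers. They had first dropped outlying cells and those with endothelial transcripts. The table holds 48709 genes and 92 spike-in sequences, which were left out of totals. A second table gives age, capture, run, and a GFP score, made from cell images and scaled by the authors, which was not used here. GENCODE vM21, of the same build, gave symbols and positions for 48349 identifiers, and RefSeq gave the promoters. No 2 cells of 22155 pairs compared had identical counts, and no doublet caller was run.

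CPM is per 1000000 reads on genes. Counts were summed per capture and tested with edgeR 4.0.16 (TMM, filterByExpr, quasi-likelihood F test, Benjamini-Hochberg at 0.05) in R 4.3.3, with DESeq2 1.42.0 as the other tool. On simulated data the test recovered changed genes when captures varied little, but none when they varied as much as fitted here, so a missing call says little. Alternatives were other size factors, no filter, deep or thinned cells, run and batch terms, the S059 runs alone, cells with neither transcript set and each capture left out. The run term was fitted on 18 sums of capture by run. Each S059 capture thus entered once per run, and such sums are not independent replicates. Thinning drew 50000 (or 200000) reads per cell at random once, with 9 further draws. Intervals are exact Clopper-Pearson 95% intervals and, like the limit of 3 counts for a count of 0, cover counting error only. Python 3.11.15, numpy 2.4.6, pandas 2.3.3, scipy 1.17.1 and matplotlib 3.10.9 were used. The genes named are the 9 chosen, the called genes and the 5 with the highest level of the pathway list, the 5 most like *Nlrp3* and *Il1b*, and markers. All members and lists were chosen with earlier results of these data known. Each capture pools mice, so p-values measure the spread between captures.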

Additional observations from a re-analysis of the deposited data

Results flagged for a closer look

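In 11 of 36 groups of captures the highest capture stood apart from the others by Dixon's 95% criterion, and 6 of the 11 were capture 36. By chance the criterion flags about 1 in 20 when values have a normal spread. Of the 11 flags, 9 were on CPM, which was not put on a log scale, so that rate need not hold here. At P120 the level in capture 36 was 557 CPM for *Nlrp3* (next 197), 149 CPM for *Casp1* (next 10.96), 807 CPM for *Casp4* (next 127), 558 CPM for *Gsdmd* (next 107.3) and 5122 CPM for *Il1r2* (next 805), and the share of cells with an *Il1r2* read was 100% (next 78.4%). At P60, capture 40 stood apart with 271 CPM of *Casp1* (next 88.5), 309 CPM of *Casp4* (next 132) and 108.4 CPM of *Gsdmd* (next 45.1), and with *Gsdmd* reads in 58.3% of its cells (next 26.1%). Capture 20c stood apart with 1033 CPM of *Nlrp3* (next 216). These values come from the same captures and cells and are not independent of each other.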

How the results depend on the processing

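None of the 9 genes was called between the ages under any of the 21 alternatives, except that DESeq2 gave *Casp4* and *Il1r2* no p, and 168 of 187 log2 fold changes with a p (P120 over P60) kept their sign. With DESeq2 and with relative log expression size factors, *Casp1* stood at -0.0948 and -0.0934, *Il1b* at -0.13 by either, and *Il1r2* at -0.10 with the latter. *Casp1* stood at -7.67 and *Casp4* at -1.15 with run as a term, *Casp1* at -0.73 within the S059 runs, at -0.66 with batch as a term and at -0.62 among cells with neither set, where *Il1rap* stood at 0.42. With each capture left out in turn the ranges were -0.55 to 2.60 for *Nlrp3*, -3.57 to 1.54 for *Casp1*, -0.67 to 0.77 for *Il1b*, -1.74 to 1.23 for *Il1r2* and -0.84 to 0.70 for *Il1rap* (positive without 17c, 31, 36 or 38), and the lowest of all but *Il1rap* was without capture 36. The causes were not tested.

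Genes called higher at P120 and at P60 numbered 5 and 5. They numbered 3 and 4 with DESeq2 and with cells of at least 50000 reads, 0 and 1 with relative log expression size factors, 17 and 5 without a filter, 0 and 0 with thinned cells, with run as a term and with batch as a term, 2 and 0 within the S059 runs, 2 and 8 among cells with neither set, and 1 to 10 and 0 to 8 with each capture left out (1 and 0 without 10c, 1 and 1 without 36, 10 and 6 without 21c, 3 and 8 without 17c). The batch, neither-set, caspase and further-draw alternatives were chosen after seeing the data.

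The share of cells with all 5 roles was 3.32% without thinning. It was 0, or within the interval of the thinned count, in the 25 other alternatives. These used thinned cells, left out a capture or asked for 10 reads. A count of 0 stays 0 when a capture is left out, so those alternatives could not differ. At 50000 reads the product of the shares gives 0.134 cells, and with 10 reads asked for 0.0625 cells. A 0 in the further draws or under that rule therefore says little. Not thinned, the share was 3.66% in cells of at least 50000 reads, 4.27% with *Casp4* for *Casp1* and 5.21% with either caspase. By age, also not thinned, it was 2.94% at P60 and 3.67% at P120. Of 135 shares of cells under other rules, 6 moved by more than the spread between captures. Captures of 3 to 37 cells and reads held by single cells limit every level given per capture. The labels give the captures no shared replicate numbers. No paired analysis was possible because each capture held 1 age only.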
